A study of Homo sapiens with 6 samples.

Results

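Laminins and their basement membrane partners were followed in HT1080 cells, an established human fibrosarcoma line, after disruption of PGK1, which encodes the glycolytic enzyme phosphoglycerate kinase. The 9 genes were chosen by symbol from the 20610 rows of the read count table: the laminin alpha chains LAMA2, LAMA3 and LAMA4, the beta chains LAMB1, LAMB2 and LAMB3, the gamma chain LAMC1, and the linkers NID1 and HSPG2. All 9 were found, and all 9 passed the filter on low counts, which kept 13249 genes. Polyadenylated RNA was sequenced from 3 libraries of HT1080 cells edited with CRISPR-Cas9 at PGK1 (KO) and 3 libraries of HT1080 cells labelled PGK1 WT (WT), all with 1 batch label and no other treatment named. The sources used here give no guide sequence, and they do not state if the edited cells were cloned or if the libraries within each group were grown as separate cultures, so p-values measure the spread between libraries, which may be technical.

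Laminins are heterotrimers of an alpha, a beta and a gamma chain, assembled in the cell and secreted to form sheets beneath epithelia, around muscle, fat and nerve cells and along vessels. The alpha chain carries the globular end that binds integrins and dystroglycan, whereas the short arms of the chains join laminins to each other. Nidogen and the heparan sulfate proteoglycan perlecan link the laminin sheet to a network of type IV collagen. Fibroblast-like tumour cells such as HT1080 degrade and cross such sheets, and the line is much used to study invasion.

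Total counts were 30175903 to 43890830 in KO and 39150295 to 47047186 in WT. PGK1 itself had 5234 to 7144 counts in KO and 51171 to 62272 in WT, a KO level 10.9% of WT (log2 fold change -3.20, adjusted p = 5.13e-15, edgeR quasi-likelihood test). KO library 3 stood furthest from the others of its group in a chi-square comparison of counts. LAMA5, the laminin alpha 5 gene, lies on chromosome 20, whose 528 annotated genes in the table together held 0.00818% of all counts, so it was not analysed here. HT1080 is a mesenchymal line, and the fixed markers gave a mixed picture. Of the mesenchymal markers, VIM, FN1 and CDH2 were well counted, with CDH2 at 71.9 CPM in KO and 168 CPM in WT, and PDGFRB had 1.16 CPM in KO and 9.27 CPM in WT. COL1A1, COL1A2, COL3A1 and THY1 were each under 1 CPM in both groups. Of the epithelial markers, KRT8 (78.1 CPM in KO and 179 CPM in WT) was as high as CDH2 in both groups. KRT18 (117 CPM in KO and 121 CPM in WT) was above CDH2 in KO and below it in WT, whereas EPCAM and KRT5 were at 0 counts in all 6 libraries. The summed level of 8 mesenchymal markers was 2519.6 to 3008 CPM in KO and 11249 to 11737 CPM in WT. Nearly all of it was VIM (1939 CPM in KO and 7873 CPM in WT) and FN1 (685 CPM in KO and 3418 CPM in WT). Of the 5 markers that could be tested 4 fell, against 36.3% of all tested genes. CPM, the usual depth-scaled count, is given after TMM scaling, a correction of library totals for composition.

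The regions before the annotated starts of the 9 genes differed in base composition and in the short motifs they hold. RefSeq (GRCh38.p14) gave 11 starts for the 9 genes, and the 250 bases before each were searched on both strands for 4 short motifs. These were TGANTCA (the AP-1 element), GGGCGG (the GC box), ACGTG (the core of the hypoxia element) and TATAAA (the TATA box). None of these words contains another, and overlapping matches of 1 motif were counted separately. The GC box was found at 9 of the 11 starts, or in 7 of the 9 genes, against 42.6% of 35116 promoters in the table. The AP-1 word was found at 2 starts, against 6.57% of promoters, and ACGTG and TATAAA at 0 starts, against 18.5% and 10.7%. LAMB3 has 3 of the starts, and 2 of its windows overlap and share 1 GC box. A match is a word in the sequence and not a bound site. Below are LAMA3 and LAMB3, the starts with the AP-1 word, then LAMC1 and HSPG2, genes of the shared gamma chain and of perlecan, with motif letters in capitals and each sequence read 5′ to 3′ towards the start.
LAMA3, chr18:23872770-23873019, plus strand: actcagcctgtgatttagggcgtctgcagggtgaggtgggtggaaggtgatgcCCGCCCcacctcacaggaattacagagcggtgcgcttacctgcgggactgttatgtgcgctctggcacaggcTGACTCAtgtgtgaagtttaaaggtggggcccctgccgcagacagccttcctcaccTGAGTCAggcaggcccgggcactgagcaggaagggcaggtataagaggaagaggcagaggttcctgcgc
LAMB3, chr1:209651375-209651624, minus strand: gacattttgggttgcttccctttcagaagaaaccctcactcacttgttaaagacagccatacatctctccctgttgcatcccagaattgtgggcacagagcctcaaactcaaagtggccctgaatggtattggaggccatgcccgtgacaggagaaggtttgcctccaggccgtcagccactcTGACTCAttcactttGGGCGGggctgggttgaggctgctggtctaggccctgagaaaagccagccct
LAMC1, chr1:183023170-183023419, plus strand: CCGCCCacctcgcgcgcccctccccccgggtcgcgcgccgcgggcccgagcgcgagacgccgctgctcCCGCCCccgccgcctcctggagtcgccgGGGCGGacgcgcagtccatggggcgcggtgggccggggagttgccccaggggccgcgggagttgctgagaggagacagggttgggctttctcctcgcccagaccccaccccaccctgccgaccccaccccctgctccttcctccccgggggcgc
HSPG2, chr1:21937311-21937560, minus strand: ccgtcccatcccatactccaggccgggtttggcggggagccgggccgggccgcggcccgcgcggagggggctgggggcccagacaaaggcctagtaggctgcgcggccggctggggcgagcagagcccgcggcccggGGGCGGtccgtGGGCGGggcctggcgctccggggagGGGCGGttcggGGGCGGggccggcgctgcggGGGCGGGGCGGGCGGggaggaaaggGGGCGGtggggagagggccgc

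The LAMA3 start listed lies inside the gene. In it the AP-1 word began 125 and 69 bases before the start, and in LAMB3 67 bases before the most internal of its 3 listed starts. HSPG2 had 8 GC box matches, and its 250 bases were 82.8% G or C. The LAMC1 window was 79.6% G or C with 3 GC box matches. LAMA4, with 48.4% G or C, and LAMA2, with 53.2%, had none of the 4 words. The LAMA4 start listed, like that of LAMA3, lies inside the gene.

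Most of the laminin and linker genes were lower in KO cells. Of the 9 members, 7 fell and 2 rose (adjusted p under 0.05, edgeR quasi-likelihood test with Benjamini-Hochberg adjustment over all genes tested). Among all tested genes 36.3% fell and 40.0% rose, so that 76.4% were called in either direction. With a change of at least 1 on the log2 scale as a further condition, 7 members were called, against 31.0% of tested genes. Of these 6 fell and 1 rose, against 15.5% of tested genes in each direction. NID1 and HSPG2 were among the 1.44% of tested genes that fell with a log2 fold change of at most -3. The 3 KO libraries lay apart from the 3 WT libraries for 9 of 9 members, against 79.2% of tested genes. The median log2 fold change of the members was -1.59, against 0.05 over all tested genes. Their summed level was 2679.9 ± 134 CPM in KO and 5858 ± 182 CPM in WT (SD, n = 3 each). Without KO library 3 the same 9 members were called in the same directions, with log2 fold changes of 1.37 (LAMA2), 0.74 (LAMA3), -2.73 (LAMA4), -1.58 (LAMB1), -1.39 (LAMB2), -0.83 (LAMB3), -1.70 (LAMC1), -3.45 (NID1) and -3.61 (HSPG2). In bulk RNA, fewer cells that express a gene and less RNA per cell cannot be told apart.

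**Figure D1:**
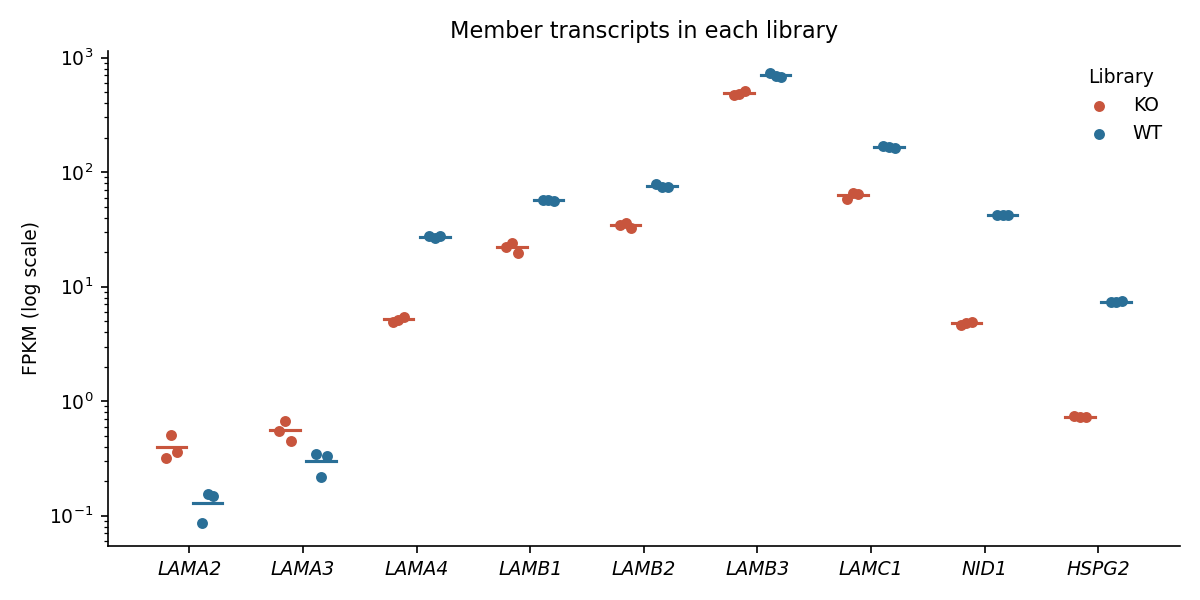
FPKM of each member in each library (log axis), with KO libraries left of WT libraries, 1 point per library and a line at the group mean. LAMA2 and LAMA3 sit below 1 FPKM and higher in KO, and the other 7 genes sit lower in KO without overlap.

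Levels can be set against each other between genes only per length, for which the authors' FPKM values (counts scaled by transcript length and library total) were used. In WT the order from high to low was LAMB3 (700.3 ± 26.3 FPKM), LAMC1 (165 ± 3.00), LAMB2 (75.8 ± 3.12), LAMB1 (56.6 ± 0.265), NID1 (42.1 ± 0.148), LAMA4 (27.3 ± 0.737), HSPG2 (7.38 ± 0.114), LAMA3 (0.299 ± 0.0694) and LAMA2 (0.13 ± 0.0381 FPKM; SD, n = 3 each). In KO the upper part of this order was the same, with LAMB3 at 489 ± 18.2 FPKM, LAMC1 at 62.8 ± 4.32, LAMB2 at 34.3 ± 1.78 and LAMB1 at 22.0 ± 2.21 FPKM (SD, n = 3). Below them LAMA4 (5.17 ± 0.298 FPKM) and NID1 (4.77 ± 0.142 FPKM) met, since the lowest LAMA4 library and the highest NID1 library were both at 4.89 FPKM. HSPG2 followed at 0.731 ± 0.0140 FPKM, then LAMA3 at 0.557 ± 0.114 and LAMA2 at 0.396 ± 0.0987 FPKM, and every HSPG2 value lay above those of LAMA3 and LAMA2. The ranges of LAMA2 and LAMA3 overlapped in KO but not in WT.

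Among the alpha chains, LAMA4 fell while the scarce LAMA2 and LAMA3 rose. LAMA4 (chr6:112107931-112254985, GRCh38.p14) encodes laminin alpha 4, a chain of vessels, fat and muscle whose short arm is truncated. It had 24.0, 25.1 and 27.9 CPM in the KO libraries, against 160.5, 153 and 161 CPM in the WT libraries. The groups were far apart, and there was a log2 difference, KO over WT, of -2.63 ± 0.065 (SE; edgeR, adjusted p = 7.24e-14), or 16.2% of WT. LAMA2 (chr6:128883138-129516566), the alpha chain of muscle and Schwann cells, had 2.88, 4.55 and 3.37 CPM in the KO libraries, against 0.920, 1.65 and 1.57 CPM in the WT libraries. Every KO library was above every WT library, on 107 to 166 counts in KO and 35 to 72 counts in WT. The fold was 1.38 on the log2 scale (SE 0.27, adjusted p = 0.000276, edgeR). LAMA3 (chr18:23689453-23955066), the alpha chain of the epidermal laminin that anchors keratinocytes, had 4.26, 5.26 and 3.65 CPM in the KO libraries, against 3.18, 2.02 and 3.08 CPM in the WT libraries. The groups were separated only by the step between 3.65 and 3.18 CPM, and there was a log2 difference, KO over WT, of 0.68 ± 0.22 (SE; edgeR, adjusted p = 0.0112). This call was lost without KO library 2 (0.50, adjusted p = 0.0675) or without WT library 2 (0.48, adjusted p = 0.0663).

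A non-member chain, LAMA1, moved most among the laminin genes with more than a few counts. LAMA1 (chr18:6941742-7117797), the alpha 1 chain of the embryonic basement membrane, had 173, 182 and 148 CPM in the KO libraries, against 16.2, 15.2 and 17.0 CPM in the WT libraries. All KO libraries were far above all WT libraries, with a log2 difference, KO over WT, of 3.38 ± 0.084 (SE; edgeR, adjusted p = 2.77e-13), or 10.4-fold. In KO LAMA1 was thus the most abundant alpha transcript measured, and in WT LAMA4 was. Within the summed FPKM of LAMA1, LAMA2, LAMA3 and LAMA4, the share of LAMA4 was 19.3% ± 2.92 in KO and 92.7% ± 0.317 in WT (SD, n = 3 each). The share of LAMA1 was 77.1% ± 2.80 in KO and 5.82% ± 0.177 in WT (SD, n = 3 each). Both shares were separated without overlap (exact two-sided permutation p = 0.1, the smallest that 3 against 3 libraries can give). LAMA3 made up 2.05% ± 0.229 in KO and 1.01% ± 0.210 in WT, and LAMA2 1.46% ± 0.285 in KO and 0.442% ± 0.135 in WT (SD, n = 3 each). Without LAMA1 in the sum, the share of LAMA4 differed by -14 percentage points, KO minus WT, in place of -73.4.

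The sum of the alpha transcripts LAMA1, LAMA2, LAMA3 and LAMA4, which leaves out LAMA5, changed less than its parts. It was 27.5, 29.3 and 24.2 FPKM in the KO libraries, against 29.8, 28.5 and 30.2 FPKM in the WT libraries, and the ranges overlapped (exact permutation p = 0.2). With TMM scaling per kilobase the sum was 25 ± 1.91 in KO and 31.9 ± 0.974 in WT (SD, n = 3 each), without overlap (exact permutation p = 0.1). The summed beta transcripts were 545 ± 15.8 FPKM in KO and 833 ± 29.4 FPKM in WT (SD, n = 3 each). This sum was lower in every KO library (exact permutation p = 0.1). The ratio of LAMC1 to the summed alpha transcripts was 2.34 ± 0.305 in KO and 5.60 ± 0.231 in WT (SD, n = 3 each), again without overlap.

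**Figure D2:**
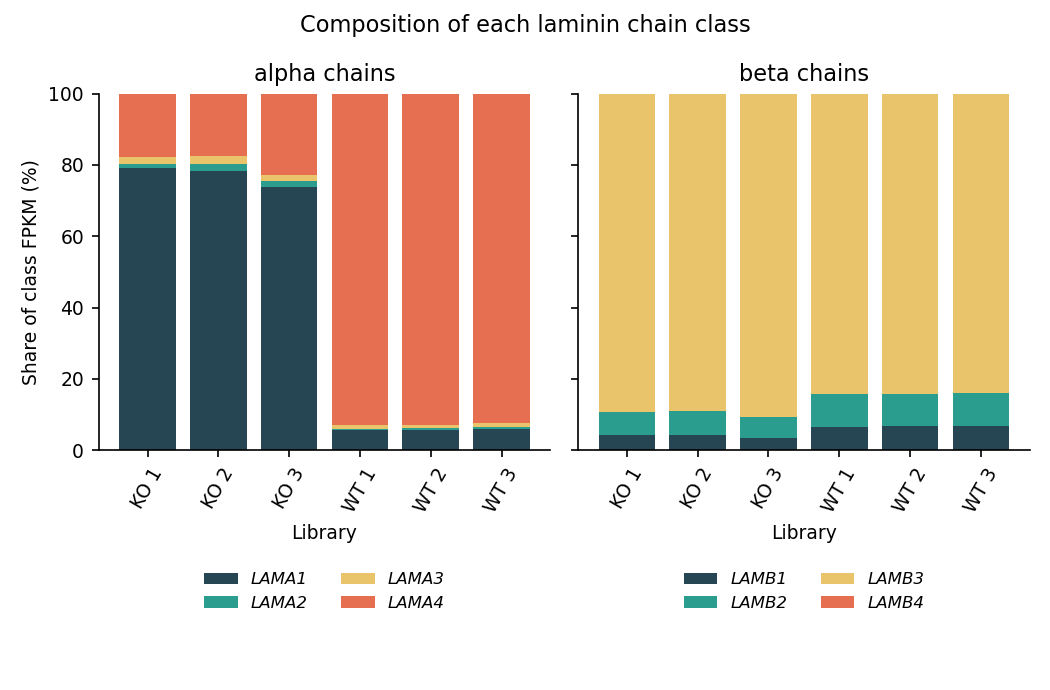
Share of each chain in the summed FPKM of the alpha or the beta class (percent), 1 bar per library, KO libraries left of WT libraries. The alpha class holds LAMA1, LAMA2, LAMA3 and LAMA4, since LAMA5 was not analysed. LAMA1 fills 73.9% to 79.1% of the alpha class in KO and 5.70% to 6.03% in WT, whereas LAMB3 leads the beta class in both groups.

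The 3 member beta chains fell, by different amounts. LAMB1 (chr7:107923799-108003161) encodes the beta 1 chain, found in most laminins. It had 112, 121 and 103 CPM in the KO libraries, against 339, 338 and 334 CPM in the WT libraries. The WT values were nearly equal, the KO values lay at 33.3% of them, and there was a log2 difference, KO over WT, of -1.59 ± 0.059 (SE; edgeR, adjusted p = 5.27e-12). LAMB2 (chr3:49121114-49133050), the beta 2 chain of the kidney filter and the neuromuscular junction, had 179.8, 188 and 176 CPM in the KO libraries, against 493, 454 and 459 CPM in the WT libraries. The groups were apart, with a log2 difference, KO over WT, of -1.37 ± 0.054 (SE; edgeR, adjusted p = 8.96e-12). The ratio of LAMB1 to LAMB2 in FPKM was 0.641 ± 0.0316 in KO and 0.747 ± 0.0304 in WT (SD, n = 3 each), lower in 3 of 3 KO libraries (exact permutation p = 0.1).

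LAMB3 (chr1:209614870-209652425), the beta 3 chain, was the most abundant member in both groups and fell least of the 7 that fell. It is a chain of the epidermal laminin, together with alpha 3. It had 1777, 1815 and 1982 CPM in the KO libraries, against 3255, 3050.5 and 3012 CPM in the WT libraries. No KO library reached the WT range, and there was a log2 difference, KO over WT, of -0.74 ± 0.064 (SE; edgeR, adjusted p = 6.38e-08), or 59.8% of WT. Of all tested genes, 0.159% in KO and 0.136% in WT had a higher mean CPM, which is a level not corrected for length. Its share of the summed member CPM was 69.3% ± 1.14 in KO and 53.0% ± 0.577 in WT (SD, n = 3 each). Without LAMB3 the members summed to 822 ± 40.6 CPM in KO and 2753 ± 51.4 CPM in WT (SD, n = 3 each). Within the beta class its FPKM share was 89.6% ± 0.909 in KO and 84.1% ± 0.204 in WT (SD, n = 3 each; exact permutation p = 0.1).

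The transcript of its partner alpha 3 was much scarcer. The FPKM ratio of LAMB3 to LAMA3 was 867, 717 and 1128 in the KO libraries, against 2128, 3143 and 2032 in the WT libraries. The LAMA3 counts behind that ratio were only 116 to 204 in KO and 88 to 121 in WT, and the ratio was lower in every KO library.

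LAMC1 (chr1:183023420-183145592) encodes gamma 1, the gamma chain of most laminins, and it fell together with LAMB1 and LAMB2. It had 418, 473 and 486 CPM in the KO libraries, against 1436, 1411 and 1374 CPM in the WT libraries. KO values were 32.6% of WT without overlap, and there was a log2 difference, KO over WT, of -1.62 ± 0.064 (SE; edgeR, adjusted p = 9.80e-12). The summed FPKM of LAMB1 and LAMB2 over that of LAMC1 was 0.899 ± 0.0869 in KO and 0.802 ± 0.0139 in WT (SD, n = 3 each), and these ranges overlapped (exact permutation p = 0.3).

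**Figure D3:**
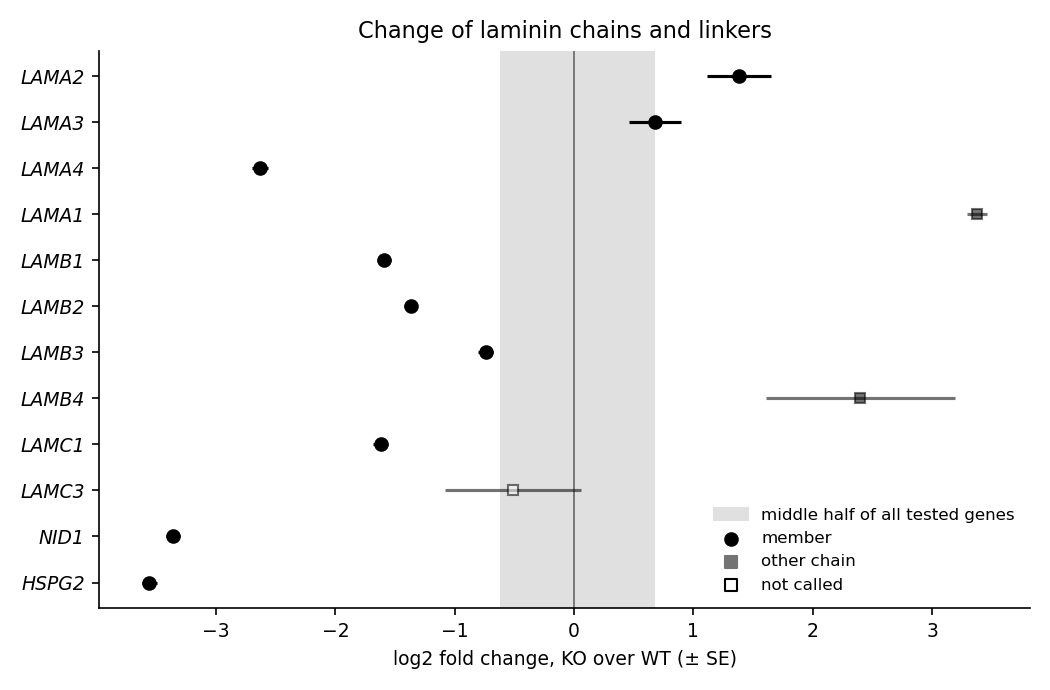
Log2 fold change, KO over WT, with its SE for the members (circles) and for LAMA1, LAMB4 and LAMC3 (squares). The grey band spans the middle part of all tested genes, between -0.61 and 0.67, and NID1 and HSPG2 lie furthest to the left.

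Of the 9 members, the linkers NID1 and HSPG2 fell most. NID1 (chr1:235975830-236065090), nidogen 1, had 24.4, 25.3 and 26.9 CPM in the KO libraries, against 263, 263 and 262 CPM in the WT libraries. The KO level was 9.71% of WT (log2 fold change -3.36, SE 0.057, adjusted p = 1.89e-15, edgeR), and 1.05% of tested genes had a more negative fold change. HSPG2 (chr1:21822244-21937310), perlecan, had 9.90, 9.60 and 9.89 CPM in the KO libraries, against 115, 114 and 117 CPM in the WT libraries. The KO level was 8.5% of WT (log2 fold change -3.56, SE 0.064, adjusted p = 2.92e-15, edgeR), and 0.823% of tested genes had a more negative fold change. The libraries of a group were almost alike for both genes and the groups far apart. The FPKM ratio of LAMC1 to NID1 was 13.2 ± 0.586 in KO and 3.93 ± 0.0800 in WT, and that of LAMC1 to HSPG2 was 86.0 ± 7.37 in KO and 22.4 ± 0.725 in WT (SD, n = 3 each). Neither ratio overlapped between groups (exact permutation p = 0.1 for each), so the linkers were lower relative to the gamma 1 chain as well.

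The transcript lengths behind the authors' FPKM were 8532 bases for LAMA3 and 9843 bases for LAMA2, which rose. Of the 7 that fell, 6 were shorter, from 4104 bases for LAMB3 to 7889 bases for LAMC1, and HSPG2 was longer, at 14461 bases. The part of length in the directions was not tested. Among 719 tested genes of 8000 bases or more, 34.8% fell and 44.8% rose, with a median log2 fold change of 0.13. Among 2363 tested genes with a mean of at least 100 CPM, 48.2% fell and 35.3% rose. LDLRAD2, which overlaps HSPG2, had at most 1 count in KO and 3 in WT.

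By the distance between log2 CPM profiles over the 6 libraries, each centred on its mean, the genes most like LAMC1 were HERC3 (0.0753), NCAPD2 (0.0762) and SUN2 (0.0769). Over all tested genes the median distance from LAMC1 was 2.14. LAMB1 was 132nd in this order, at 0.255, and LAMB2 317th, at 0.358. For LAMB3 the nearest were LRP10 (0.0514), METAP1 (0.0630) and TUBGCP2 (0.0680), and the nearest member was LAMB2, at 0.785. The log2 fold changes of HERC3, NCAPD2 and SUN2 were -1.64, -1.59 and -1.62, against -1.62 for LAMC1. Those of LRP10, METAP1 and TUBGCP2 were -0.73, -0.76 and -0.75, against -0.74 for LAMB3. The distances thus largely reflect the difference between the groups, and shared regulation was not tested.

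The rest of the basement membrane gene lists moved unevenly. Of 70 listed genes in 7 lists, 51 were tested, of which 26 fell, 15 rose and 10 were not called, with a median log2 fold change of -0.37 against 0.05 over all tested genes. As shares, 51% fell and 29.4% rose, against 36.3% and 40.0% of all tested genes. Of chains outside the member list that are described here, LAMA1 and LAMB4 rose and LAMC3 was not called (6 to 12 counts in KO and 8 to 14 in WT). LAMB4 had 9 to 14 counts in KO and 0 to 4 in WT (adjusted p = 0.0127, edgeR), too few for a firm fold, and this call was lost without WT library 2 (adjusted p = 0.0614) or with limma on log2(FPKM + 1) (adjusted p = 0.118).

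Among the network collagens, 3 of 6 tested genes fell and 3 were not called, whereas 36.3% of all tested genes fell and 40.0% rose. COL4A1 and COL4A2, the paired chains of the common type IV collagen, had 105 ± 7.08 and 168 ± 5.79 CPM in KO, against 324 ± 5.57 and 943 ± 15.8 CPM in WT (SD, n = 3 each). Their log2 fold changes were -1.63 (SE 0.057, adjusted p = 2.40e-12) and -2.49 (SE 0.054, adjusted p = 1.88e-14, edgeR). COL4A5 fell with a log2 difference, KO over WT, of -0.58 ± 0.12 (SE; edgeR, adjusted p = 0.000466).

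Of 10 tested genes for other linkers and glycoproteins, 5 fell, 4 rose and 1 was not called. The number that rose was 2 without KO library 1, without KO library 2 or without WT library 3. With all libraries 50% fell and 40% rose, against 36.3% and 40.0% of all tested genes. SPARC, a collagen-binding protein of the matrix, had 108 ± 8.24 CPM in KO and 1138 ± 12.7 CPM in WT, and FBLN2, fibulin 2, had 23.2 ± 1.38 CPM in KO and 137 ± 2.73 CPM in WT (SD, n = 3 each). AGRN, the proteoglycan agrin, had 536 ± 14.9 CPM in KO and 1327 ± 68.9 CPM in WT (SD, n = 3 each). SMOC2, a relative of SPARC, rose on few reads, with 85 to 130 counts in KO and 0 to 7 counts in WT. All 4 passed the test (adjusted p between 5.40e-15 and 5.97e-07, edgeR). The log2 fold change of SPARC was -3.40. NID2, nidogen 2, named here after its values were seen, rose on few reads (log2 fold change 0.83, adjusted p = 0.0322, edgeR). It had 35 to 78 counts in KO and 20 to 44 in WT. Of 3 tested netrins, whose ends resemble laminin short arms, NTN4 and NTNG2 fell (log2 fold changes -1.24 and -1.22, adjusted p = 1.35e-11 and 9.11e-09, edgeR). NTN1, NTN3 and NTN5 were too scarce to test, with 2 to 21, 4 to 23 and 1 to 2 counts in KO, against 0 to 2, 0 to 4 and 0 to 2 counts in WT. NTNG1 fell by 0.18 on the log2 scale (adjusted p = 0.0410, edgeR), but was higher in KO by 0.04 with library size alone (adjusted p = 0.576). In the main fit all 3 tested netrins were thus called lower. Of all tested genes 36.3% fell, and 76.4% were called in either direction.

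Of 7 tested laminin receptors, 5 fell, 0 rose and 2 were not called. The 5 called were 71.4% of those tested, against 76.4% called among all tested genes, of which 36.3% fell. ITGA6 and ITGA3, integrin subunits that bind laminin, had 254 ± 15.3 and 1977 ± 143 CPM in KO, against 985 ± 7.66 and 4295 ± 146 CPM in WT (SD, n = 3 each). Their shared partner ITGB1 had 789.6 ± 40.0 CPM in KO and 1721 ± 40.0 CPM in WT, and CD151, a tetraspanin bound to these integrins, had 148 ± 10.8 CPM in KO and 388 ± 16.8 CPM in WT (SD, n = 3 each). The log2 fold changes were -1.96, -1.12, -1.12 and -1.39 (adjusted p at most 1.04e-09, edgeR). The fifth gene that fell was DAG1, named here after its values were seen, which encodes dystroglycan (log2 fold change -0.53, adjusted p = 2.43e-06, edgeR). ITGA7 and ITGB4 were scarce, with at most 12 and 50 counts in KO, against 25 and 58 in WT. Of 14 tested enzymes that build the laminin-binding sugar chain of dystroglycan, 7 rose, 5 fell and 2 were not called. These shares, 50% and 35.7%, stood near the 40.0% and 36.3% of all tested genes that rose and fell. POMT2, a mannosyltransferase that starts the chain, rose (46.8 ± 3.21 CPM in KO and 15.4 ± 0.955 CPM in WT), as did RXYLT1 (31.8 ± 0.930 CPM in KO and 13.3 ± 1.08 CPM in WT; SD, n = 3 each). POMGNT1 and B4GAT1 fell (log2 fold changes -0.58 and -1.04). All 4 passed the test (adjusted p at most 1.43e-07, edgeR).

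Of 7 tested proteases that cut basement membrane proteins, 4 fell (57.1%), 2 rose (28.6%) and 1 was not called. Of all tested genes, 36.3% fell and 40.0% rose. MMP14, a membrane-bound protease, had 757 ± 32.3 CPM in KO and 5952 ± 116 CPM in WT, and MMP2, which it activates, 21.6 ± 3.13 CPM in KO and 55.1 ± 3.95 CPM in WT (SD, n = 3 each). MMP3, which cleaves laminin, nidogen and perlecan, had 674 ± 49.6 CPM in KO and 1.96 ± 0.350 CPM in WT (SD, n = 3 each; log2 fold change 8.41, SE 0.11). TLL2, a relative of the procollagen and laminin processing enzyme BMP1, had 4.49, 4.88 and 2.24 CPM in the KO libraries, against 0.210, 0.390 and 0.413 CPM in the WT libraries. All 4 passed the test (adjusted p at most 4.90e-07, edgeR).

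**Figure D4:**
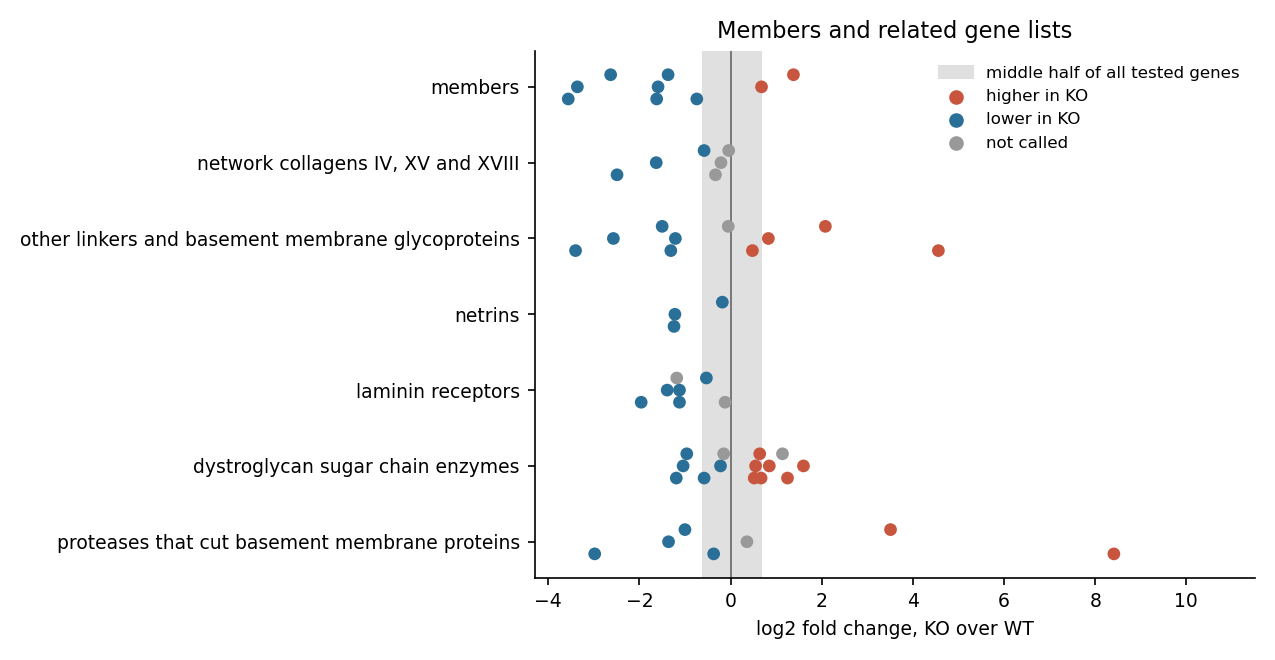
Log2 fold change, KO over WT, of the 9 members and of the tested genes in 6 related lists, 1 point per gene, coloured by the call at an adjusted p under 0.05. The 5 receptor genes called all lie at or left of -0.53, and MMP3 lies furthest to the right at 8.41.

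Markers of other tissues that make these laminins were also read. Of 8 muscle and Schwann cell markers the summed level was 2.87 to 4.28 CPM in KO and 6.66 to 8.57 CPM in WT, with MYOG and SOX10 at 0 counts in all libraries. Of 8 epithelial markers it was 177 to 221 CPM in KO and 295 to 311 CPM in WT, nearly all from KRT8 and KRT18, and of the 4 tested 1 rose (CDH1, with 32 to 43 counts in KO and 0 to 4 in WT), 2 fell and 1 was not called. Of 6 endothelial markers it was 72.0 to 80.1 CPM in KO and 109 to 111 CPM in WT, most of it ROBO4. Of the 5 endothelial markers tested 3 fell, 1 rose and 1 was not called. Beside the epithelial and endothelial counts, 36.3% of all tested genes fell and 40.0% rose, so that 76.4% were called in either direction. PECAM1 (52 to 102 counts in KO and 340 to 484 in WT), CDH5 (0 to 2 counts in KO and 12 to 16 in WT) and ROBO4 fell, and TEK rose (16 to 19 counts in KO and 2 to 8 in WT). The part of these differences and of the mesenchymal markers in the laminin results was not tested.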

How the data were processed

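Messenger RNA was captured on beads and made into libraries with a Vazyme kit, per the labels' protocols. The authors deposited read counts per gene symbol and FPKM values, with fastp, HISAT and hg38 named in the submitters' processing notes. The counting tool, annotation and strand setting are not stated in those notes or the files, which leaves overlapping and antisense genes uncertain. The deposited FPKM equal count over library total and a fixed length for 17521 of 17521 genes with a count (relative tolerance 1e-06).

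Counts were tested with edgeR 4.0.16 in R 4.3.3 (TMM, filterByExpr, robust quasi-likelihood F-test, group only), adjusted over 13249 genes. SE is the absolute log2 fold change over the square root of F. CPM of a count of 1 was 0.0209 to 0.0315. Sums, shares and ratios used exact permutation tests with scipy 1.17.1. Every member is described in full, of each longer list up to 4 called genes with the smallest p, and of lists of at most 6 genes all. Members and lists were chosen with earlier results of these data known. Alternatives included DESeq2 1.42.0 and limma 3.58.1. Coordinates and promoters are RefSeq GRCh38.p14. One item of the lists is not reported here by name.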

Additional observations from a re-analysis of the deposited data

How the results depend on the processing

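The 7 falls among the members passed in each of 18 other fits: other scalings and filters, a replicate block, a non-robust fit, DESeq2, limma voom, limma on log2(FPKM + 1) or log2(FPKM + 0.1), each library left out, and, chosen after seeing the data, no chromosome 20 genes. LAMB3 ranged from -0.83 to -0.52, LAMA4 from -2.73 to -2.20, NID1 from -3.45 to -2.90 and HSPG2 from -3.61 to -2.28, the last with log2(FPKM + 1), which understates scarce genes. LAMA2 ranged from 0.30 to 1.60 and passed in all. With 1 library left out, 1 to 2 members rose, since LAMA3 was lost without KO library 2 or WT library 2. NTNG1 turned to 0.04 with library size alone, log2(FPKM + 1) or log2(FPKM + 0.1), and lost its call in 8 other fits. Replicate numbers are shared between the groups, but same-numbered libraries did not deviate together (correlations -0.00116, 0.00571 and -0.0106). Such values cannot tell if the numbers denote pairs. With the replicate block, 7 members fell and 2 rose, LAMA3 at an adjusted p of 0.0175, and NTNG1 lost its call (0.0592). Scaling by library size alone put 63.6% of called genes higher in KO, against 52.4% under TMM, and the median of all genes at 0.28 rather than 0.05. The 83 values of chain shares under other settings kept their direction. Without a filter, and without KO library 3 or any 1 WT library, 2 netrins were called higher. Other linkers that rose numbered 2 rather than 4 without KO library 1, KO library 2 or WT library 3. The TMM-scaled alpha sum was also chosen after seeing the data. The causes of lost calls were not tested. LAMA2 had 35 to 166 counts per library, LAMA3 88 to 204 and LAMB4 0 to 14, the fewest among the laminin chains named with a call.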
